A study of Mus musculus with 12 samples.

Results

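The genes described here encode the proteins of the cytosolic ribosome, together with the paralogs of these proteins that are known from the testis and other tissues. They were taken by their symbol from the deposited expression table, as every gene named Rpl or Rps with a number and at most an a, x or l ending, plus Rplp0, Rplp1 and Rplp2, with the named pseudogenes left out. The rule found 88 of the 55385 genes in the table. Of these, 30 encode proteins of the small subunit, 43 proteins of the large subunit and 3 the P stalk, which makes a standard set of 76 genes. A further 7 are paralogs with a changed sequence (Rpl3l, Rpl7l1, Rpl10l, Rpl22l1, Rpl39l, Rps4l and Rps27l; Rps4l is a single exon annotated as a transcribed processed pseudogene), and 5 are intronless copies annotated as processed pseudogenes (Rps12l1, Rpl6l, Rpl32l, Rps3a2 and Rps3a3). Further genes that belong to or resemble the cytosolic ribosome, such as Rpsa, Fau, Rack1 and Rpl36al, fall outside the naming rule and are given at the end.

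As background, a ribosome carries a single copy of most of its proteins, and the genes for them are spread over nearly all chromosomes. They are kept in proportion at the level of translation through a run of pyrimidines at the very start of their messengers, the terminal oligopyrimidine (TOP) tract, which places them under the control of mTORC1 and LARP1. Germ cells silence the X chromosome during meiosis, and several ribosomal protein genes on the X or elsewhere have an autosomal paralog that is used in the testis. Spermatogonia, the cells examined here, precede that step.

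RNA-seq was available for 12 libraries in 6 groups of 2. Undifferentiated spermatogonia (Aundiff, sorted as E-Cadherin+CD9high KIT-) and early differentiating spermatogonia (Adiff, E-Cadherin+CD9medium KIT+) came from wild-type (WT) C57BL/6 mice at 2-3 months of age, and 100000 to 150000 pooled cells went into each replicate. The other 8 libraries were Aundiff of mice on a mixed C57BL/6 X FVB/NJ background that all lacked Ring1, 1 of the 2 catalytic subunits of Polycomb repressive complex 1 (PRC1), and that all carried the germ cell driver Ddx4-Cre. PRC1ctrl mice (Ring1-/-; Rnf2 F/+; Ddx4-Cre) kept 1 copy of the second catalytic subunit, Rnf2, whereas in PRC1cKO mice (Ring1-/-; Rnf2 F/-; Ddx4-Cre) germ cells were meant to have no copy, so no comparison within the PRC1 mice shows the effect of Ring1 loss. These genotypes were sampled at 2 months without treatment, from about 7000 cells with a low-input kit (Smart-Seq2 type), and after about 30 daily injections from 1 month of age of the compound Win18446 (40 µg/µl in 50 µl of DMSO), an inhibitor of retinoic acid synthesis that holds spermatogonia in the undifferentiated state. The Win18446 libraries and the WT libraries were made with a stranded kit for polyadenylated RNA. Groups were tested against each other only within a kit.

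Expression is given in TPM, a share of the library that is corrected for transcript length, and read depth is not recoverable from it. Ring1 lay at 0.03 to 0.25 TPM in the 8 PRC1 libraries and at 8.61 to 19.9 TPM in the WT libraries. Rnf2 was at 28.3 and 47.6 TPM in PRC1ctrl and 56.7 and 67.5 TPM in PRC1cKO at 2 months, and at 78.1 and 67.2 against 86.2 and 93.1 TPM after Win18446, so a gene-level TPM does not show the deletion and genotypes are named by the label of the library. The summed TPM of 13 markers of undifferentiated spermatogonia was 1291 and 1438 in WT Aundiff and 321 and 359 in WT Adiff, and that of 9 markers of differentiating spermatogonia was 651 and 713 against 2273 and 2392. Of 14 spermatid markers, 12 of which passed the filter in each comparison of the PRC1 mice, 7 were lower in the libraries labelled PRC1cKO at 2 months and 11 after Win18446, and 0 were higher in either. Of all genes tested, 1.94% were lower at 2 months and 26.7% after Win18446, and 0.222% and 5.87% were higher. The summed TPM of the 14 markers was 1138 and 2420 in PRC1ctrl against 79.2 and 71.3 in PRC1cKO at 2 months, and 179 and 164 against 33.4 and 30.4 after Win18446. The protamines Prm1 and Prm2 lay at 0 to 0.99 TPM in the 4 PRC1cKO libraries. In WT, 5 of the 14 were lower in Adiff, as were 14.7% of all genes tested. The sum of the 14 was 950 and 1019 in WT Aundiff and 660 and 840 in WT Adiff. The part of spermatid RNA in the results on ribosomal protein genes was not tested. In bulk RNA, fewer cells of a type and less RNA per cell cannot be told apart.

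Ribosomal protein genes were among the most abundant transcripts of the stranded libraries. Of the 50 genes with the highest TPM, 30 and 29 were members in WT Aundiff, 22 and 19 in WT Adiff, and 28 to 32 in the 4 Win18446 libraries, and in these 8 libraries mitochondrial genes held 4.28% to 6.69% of the TPM. In each low-input library 7 or 8 were members, and mitochondrial genes held 12.5% to 16.7%; these values differ in kit and cell number and were not compared. Levels differed widely between members: over the 8 stranded libraries the mean TPM of the 76 genes of the standard set ran from 42.8 (Rpl5) to 6705 (Rpl13a) with a median of 1703, and 62 of them reached 1000 TPM. The highest were Rpl13a, which also has a role in silencing inflammatory messengers, and Rps24 at 6001 TPM. The lowest were Rpl5 (42.8 TPM), Rpl12 (48.6 TPM) and Rpl39 (96.0 TPM). These levels carry a limit of the quantification, because the mouse genome holds many near-identical processed copies of ribosomal protein genes that can take their reads. Of all stretches of 100 bases in the Rpl5 transcript, 91.1% occur in another transcript too, against 46.8% for Rpl12 and 1.75% for Rpl39. Among the intronless copies, Rps12l1 shares 100% of such stretches with other transcripts and lies wholly over exons of the other strand, and its 407 to 1010 TPM in the stranded libraries cannot be assigned to it. The other 4 copies stayed at or below 1.28 TPM in all 12 libraries.

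By role, the mean TPM over the stranded libraries ran from 337 (Rps4x) to 6001 (Rps24) in the small subunit with a median of 2222, and from 42.8 to 6705 in the large subunit with a median of 1446. The P stalk, the flexible arm of the large subunit that recruits elongation factors, was more even, with Rplp2 at 3423, Rplp0 at 3676 and Rplp1 at 4359 TPM. The paralogs were lower than most of the standard set. Rpl3l, a form of Rpl3 known from skeletal and heart muscle, had 6.60 TPM. Rpl7l1 had 102, Rpl10l 132, Rps27l 268, Rpl39l 365, Rpl22l1 473 and Rps4l 480 TPM. Rpl10l and Rpl39l are known from the testis, and both were expressed in each spermatogonial group.

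Summed over all 88 genes, ribosomal protein messengers took a smaller share of the library in WT Adiff than in WT Aundiff. They made up 18.1% and 18.3% of all TPM in the WT Aundiff libraries and 12.1% and 12.4% in WT Adiff, a ratio of 0.673. After Win18446 the share was 14.9% and 13.8% in PRC1ctrl and 16.8% and 16.4% in PRC1cKO, a ratio of 1.16. In both cases the groups did not overlap, but an exact permutation test of 2 libraries against 2 cannot give a two-sided p below 0.333, which is the p of both. At 2 months the shares were 7.03% and 6.09% in PRC1ctrl and 6.51% and 6.01% in PRC1cKO, and the groups overlapped. Both subunits took part: the small subunit went from 8.18% and 8.14% in WT Aundiff to 5.48% and 5.51% in WT Adiff, and the large subunit from 8.43% and 8.59% to 5.36% and 5.48%. Of 12 markers of Sertoli cells, the somatic cells of the tubules, 7 were tested in WT. Of these, 2 were lower in Adiff (Ctsl and Wt1), where 14.7% of all genes were lower. The sum of the 12 was 268 and 266 TPM in Aundiff and 166 and 145 TPM in Adiff. Most of this sum was Ctsl alone, with 238 and 230 against 143 and 125 TPM. Wt1 had 9.37 and 10.9 against 5.24 and 5.39 TPM. The part of these markers in the result was not tested. The P stalk did not separate the populations, with 1.16% and 1.32% against 1.01% and 1.23%.

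**Figure D1:**
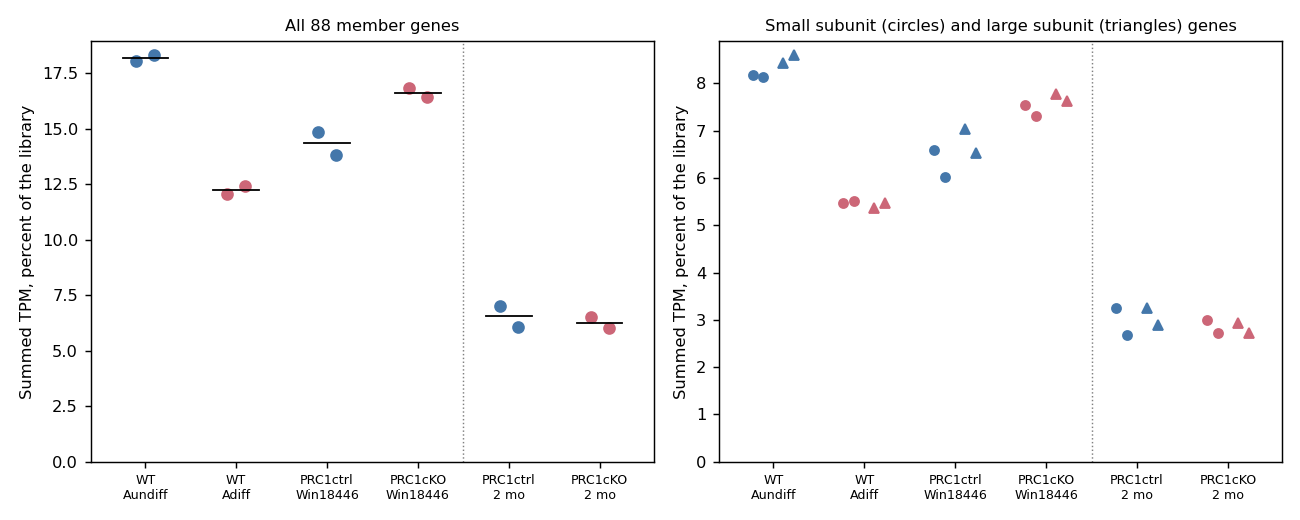
Summed TPM of the 88 ribosomal protein genes (left) and of the small and large subunit genes alone (right) as percent of each library, with 1 point per library, blue for the reference and red for the other group of a comparison, a black line for the mean of a group (n = 2) and a dotted line between the stranded and the low-input libraries, whose levels are not comparable. The WT Adiff libraries lie at 12.1% and 12.4%, below both WT Aundiff libraries at 18.1% and 18.3%, and the PRC1cKO libraries lie above the PRC1ctrl libraries after Win18446.

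The comparison of WT Adiff with WT Aundiff asks how the messengers for the ribosome change as spermatogonia begin to differentiate. Most fell. Of the 84 members that reached 1 TPM in 2 or more of these 4 libraries, 58 were lower in Adiff and 2 were higher (limma on log2(TPM + 1), Benjamini-Hochberg adjusted p under 0.05 over all 15470 genes tested). In the background of all genes tested, 14.7% were lower and 23.4% were higher. A change beyond 2-fold was found in 11 members downward and 1 upward, against 9.24% and 11.1% of all genes. The 58 and the 11 include the intronless copy Rps12l1, whose TPM cannot be assigned to it. Of the 76 genes of the standard set, 55 were lower, 9 of them beyond 2-fold, and 0 were higher. The median log2 fold change of the members was -0.60 and that of all genes 0.149. Scaling the libraries by the median of ratios moved the latter to -0.002 and the former to -0.77. The libraries of both groups did not overlap in 65 members that were lower (77.4%, against 28.7% of all genes) and in 4 that were higher (against 43.4%). The count of members called lower was 32 without WT Aundiff replicate 1, and also 32 without WT Aundiff replicate 2.

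In the small subunit, 23 of 30 genes fell and 0 rose, with a median log2 fold change of -0.62. Rps4x, the X-linked gene for eS4, fell far more than any other member of the standard set: it had 462 and 442 TPM in Aundiff and 62.3 and 51.0 TPM in Adiff, a log2 fold change of -2.98 (SE 0.14, limma adjusted p = 0.000244). It was called under every alternative tried, and 34.8% of its stretches of 100 bases are shared with other transcripts. Rps27, a zinc finger protein of the small subunit, had 3787 and 3375 against 1942 and 1472 TPM (-1.08, adjusted p = 0.00441). Rps20, named after its value was seen, fell by 1.21 on the log2 scale. Rps24, the most abundant gene of the subunit, had 8337 and 7085 TPM in Aundiff and 4750 and 4031 TPM in Adiff (-0.81), but was not past the threshold without WT Aundiff replicate 1 (limma adjusted p = 0.0642). Rps2 moved the other way from the rest without passing the test, with 3191 and 3545 against 3535 and 4205 TPM, and overlapped between the groups.

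Several members have a second role outside the assembled ribosome, and 7 of the 8 that had been listed for this fell. Of all members 58 of 84 fell, and of all genes tested 14.7%, so a fall was not particular to this list. Rps6, the substrate of the S6 kinases, had 1985 and 1789 TPM in Aundiff and 1083 and 904 in Adiff (-0.93). Rps19, whose loss causes Diamond-Blackfan anaemia, had a log2 fold change of -0.99, and Rps27a, which is made as a fusion with ubiquitin, one of -0.89. Rpl11, which together with Rpl5 and 5S RNA binds the p53 inhibitor MDM2, had 1131 and 1250 against 570 and 635 TPM (-0.98), and Rpl38, known for its part in the translation of Hox messengers, had -0.64 but missed the threshold without WT Aundiff replicate 1 (limma adjusted p = 0.058) or 2 (0.068). Rps3, a DNA repair factor in addition, passed the threshold narrowly (-0.51, limma adjusted p = 0.0495), and its call was lost without WT Aundiff replicate 1 (0.217), WT Aundiff replicate 2 (0.144) or WT Adiff replicate 2 (0.097). Rpl5, the exception, had 56.8 and 51.9 against 40.4 and 52.3 TPM, but most of its sequence is shared with other transcripts.

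In the large subunit, 32 of 43 genes fell and 0 rose, with a median of -0.62. Rpl31, which sits near the exit of the peptide tunnel, had 1175 and 1114 TPM in Aundiff and 530 and 459 TPM in Adiff (-1.21, SE 0.12, limma adjusted p = 0.00158). Rpl13a, the highest member, had 8244 and 8606 against 3976 and 3976 TPM (-1.08, adjusted p = 0.00134). Rpl39, a very small protein in the tunnel wall, had 100.3 and 101 against 59.9 and 35.6 TPM (-1.11, SE 0.241, adjusted p = 0.0154), and its call was lost without WT Aundiff replicate 1 (limma adjusted p = 0.0634) or 2 (0.064). The log2 fold changes of the 43 genes ran from -1.21 to 0.18. In the P stalk 0 of 3 genes passed the test, and the values were -0.17 for Rplp0, -0.23 for Rplp1 and -0.03 for Rplp2, whose sign turned without WT Aundiff replicate 2 or WT Adiff replicate 1.

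The subunit genes that were not called in WT numbered 18, and some are named here for that reason. In the small subunit they included Rps2, Rps13, Rps21, Rps23 and Rps29, and in the large subunit they were Rpl5, Rpl8, Rpl10, Rpl12, Rpl13, Rpl22, Rpl27, Rpl27a, Rpl28, Rpl36 and Rpl41. Rpl41, the smallest of the ribosomal proteins, overlapped between the groups with 2831 and 3146 against 2569 and 3167 TPM. In 4 members both Adiff libraries were above both Aundiff libraries, namely Rps27l, Rpl7l1, Rpl3l and Rpl10. Pseudogenes of the members that carry a name of their own held 1.68% and 1.70% of all TPM in WT Aundiff and 1.18% and 1.06% in WT Adiff. Near-identical copies can take reads of the members, so this drop is not independent of that of the members. Adding the named pseudogenes to their members left 59 called lower.

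Of the 4 members on chromosome X, Rps4x, Rpl39 and Rpl36a were lower in Adiff and Rpl10 was not called. Among all members 58 of 84 were lower, and among all genes tested 14.7%. Rpl36a had 931 and 802 TPM in Aundiff and 589 and 547 TPM in Adiff (-0.60, and not past the threshold without WT Aundiff replicate 1, limma adjusted p = 0.118). Rpl10 had 251 and 261 against 301 and 280 TPM (0.18). The values of Rpl36a and Rpl10 rest on transcripts that share 83.6% and 84.4% of their stretches with others.

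**Figure D2:**
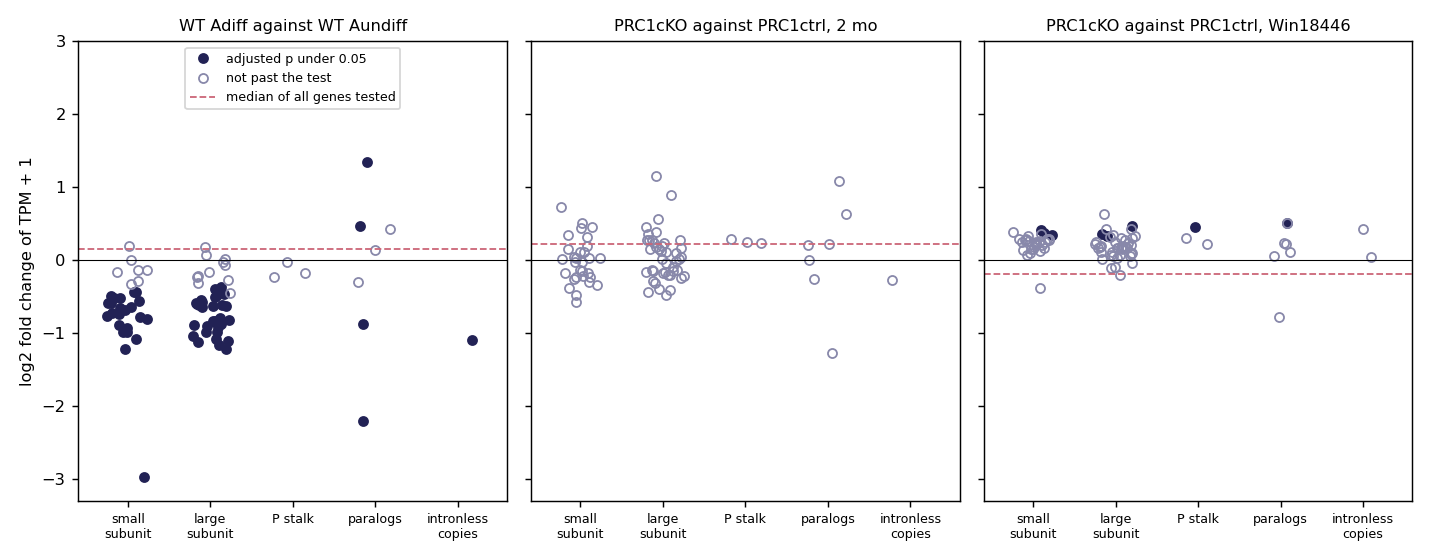
Log2 fold change of TPM + 1 for each tested member, by role, in WT Adiff against WT Aundiff and in PRC1cKO against PRC1ctrl at 2 months and after Win18446; filled points passed an adjusted p of 0.05, and the dashed line is the median of all genes tested. In WT most points of both subunits lie below 0 with Rps4x at -2.98, at 2 months no point is filled, and after Win18446 most points lie slightly above 0 while the median of all genes lies below it.

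The paralogs did not move as a group: of the 7, 2 were called higher and 2 lower in WT Adiff. Of all genes tested, 23.4% were higher and 14.7% lower. A paralog and its parent resemble each other but differ throughout their sequence, so that a read over a differing base can be assigned to 1 of them. This is shown here for the 3 pairs whose proportions moved most, as the same stretch of 90 coding bases of each, with the bases that differ between the pair in capitals (GENCODE annotation on GRCm38; for Rps4l, which has no annotated coding region, the transcript).
Rps4x: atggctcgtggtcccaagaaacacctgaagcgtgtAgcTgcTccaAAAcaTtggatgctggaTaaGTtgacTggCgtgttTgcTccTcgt
Rps4l: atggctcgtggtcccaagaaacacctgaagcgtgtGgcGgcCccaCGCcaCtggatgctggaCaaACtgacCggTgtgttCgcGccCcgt
Rpl22: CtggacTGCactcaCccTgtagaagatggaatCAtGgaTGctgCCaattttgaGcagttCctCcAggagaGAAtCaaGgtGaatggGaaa
Rpl22l1: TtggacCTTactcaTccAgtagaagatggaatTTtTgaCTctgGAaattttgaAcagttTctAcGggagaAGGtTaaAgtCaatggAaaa
Rps27: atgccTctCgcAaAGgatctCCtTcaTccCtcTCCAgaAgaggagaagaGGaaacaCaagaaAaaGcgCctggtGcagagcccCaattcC
Rps27l: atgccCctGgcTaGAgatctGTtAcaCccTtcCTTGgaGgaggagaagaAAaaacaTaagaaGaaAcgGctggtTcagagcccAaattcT
The stretches differ at 15, 24 and 24 bases. Counted over whole transcripts, the share of stretches of 100 bases that also occur elsewhere was 1.66% for Rps4l, 50.8% for Rpl22l1 and 0% for Rps27l. Over the whole aligned coding sequence, identity was 80.1% for Rps4l and Rps4x, 74.6% for Rpl22l1 and Rpl22, 76.1% for Rps27l and Rps27, 85.3% for Rpl39l and Rpl39, 84.8% for Rpl10l and Rpl10, 74.7% for Rpl3l and Rpl3, and 63.3% for Rpl7l1 and Rpl7. Rps4x lies on chromosome X from 102184941 to 102189394, and Rps4l on chromosome 6 from 148354656 to 148355598. Rpl22 lies on chromosome 4 from 152325742 to 152334071 and Rpl22l1 on chromosome 3 from 28805436 to 28807424. Rps27 lies on chromosome 3 from 90212522 to 90213651 and Rps27l on chromosome 9 from 66946086 to 66949516.

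Rps4l, the autosomal paralog of Rps4x, did not fall with it: it had 489 and 549 TPM in WT Aundiff and 480 and 676 TPM in WT Adiff, with overlapping groups (log2 fold change 0.14, which becomes -0.04 after median-of-ratios scaling). Rps4l made up 51.5% and 55.4% of the TPM of the pair in Aundiff and 88.5% and 93.0% in Adiff. The opposite was seen for Rpl22l1, the paralog of the RNA-binding protein Rpl22. Rpl22 had 1153 and 1074 TPM in Aundiff and 1155 and 1028 TPM in Adiff (-0.03), whereas Rpl22l1 had 610 and 447 against 127 and 98.6 TPM (-2.21, SE 0.195, limma adjusted p = 0.00127). Its share of the pair went from 34.6% and 29.4% to 9.92% and 8.75%. Rps27l, a target of p53, rose from 212 and 178 to 527 and 463 TPM (1.34, SE 0.139, adjusted p = 0.00179) as Rps27 fell, and its share of the pair went from 5.31% and 5.01% to 21.3% and 23.9%.

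Rpl39l and its X-linked parent Rpl39 were both lower in Adiff. Rpl39l had 479 and 406 TPM in Aundiff and 253 and 230 TPM in Adiff (-0.87, SE 0.132, limma adjusted p = 0.00507), and it remained the larger part of the pair in every group, with 80.1% to 86.6% in the 4 WT libraries. Rpl7l1, whose known role is in the assembly of the large subunit, rose from 95.4 and 96.3 to 142 and 124 TPM (0.47, SE 0.129, adjusted p = 0.0322) as Rpl7 fell (-0.84); its call was lost without WT Aundiff replicate 1 (adjusted p = 0.156), WT Aundiff replicate 2 (0.139) or WT Adiff replicate 1 (0.106), and after median-of-ratios scaling (0.111). Rpl10l, known to be needed in male meiosis, had 138 and 143 against 101 and 129 TPM and was not called, nor was Rpl3l, with 6.55 and 4.79 against 7.47 and 8.28 TPM. Rpl3 itself had 1430 and 1492 against 803 and 782 TPM (-0.88).

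**Figure D3:**
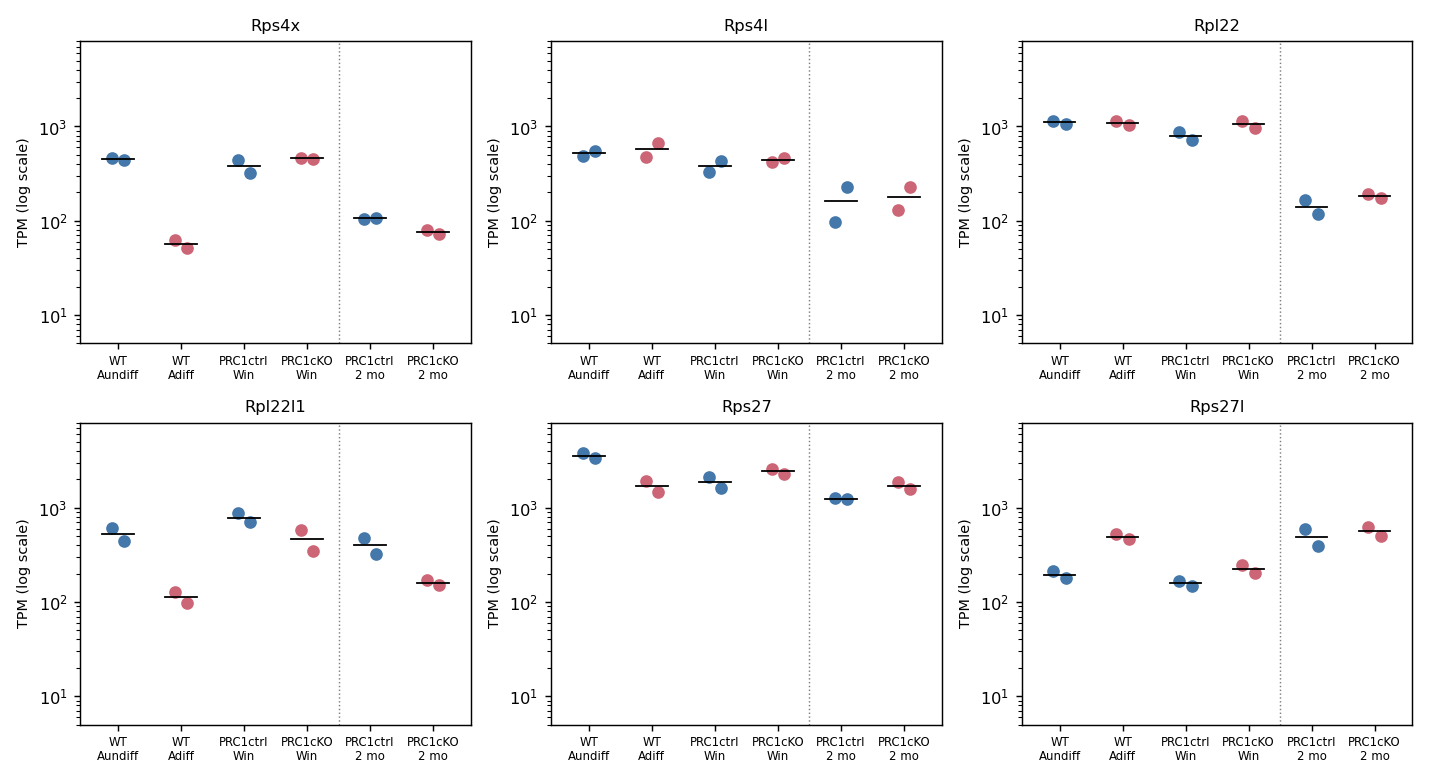
TPM on a log axis of 3 paralogs and their parents in each library, with 1 point per library (blue for the reference and red for the other group of a comparison; Win, after Win18446) and a black line for the mean of a group (n = 2); the dotted line separates the stranded from the low-input libraries. Rps4x falls to 62.3 and 51.0 TPM in WT Adiff while Rps4l stays at 480 and 676 TPM, and Rpl22l1 is lower in WT Adiff and in both PRC1cKO groups than in their controls.

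**Figure D4:**
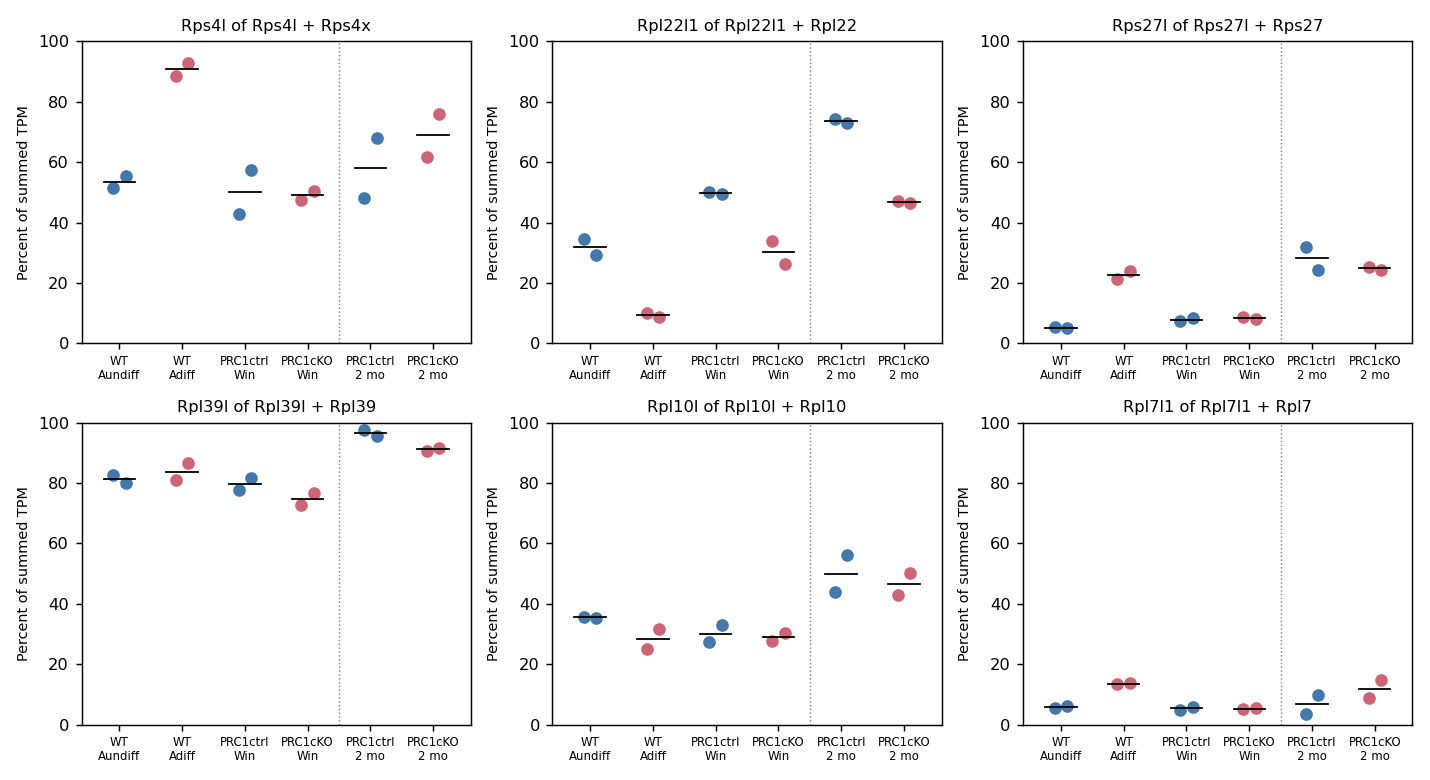
Share of each paralog in the summed TPM of paralog and parent, in percent, with 1 point per library (colours and groups as in the plot of TPM by pair) and a black line for the mean of a group (n = 2). The share of Rps4l reaches 88.5% and 93.0% in WT Adiff, and that of Rpl22l1 is lower in WT Adiff and in the libraries labelled PRC1cKO than in their respective controls.

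The comparison of PRC1cKO with PRC1ctrl at 2 months asks what loss of the remaining PRC1 activity does to Aundiff. Sums of cell type markers also differed. The 13 of undifferentiated spermatogonia had 1095 and 1558 TPM in PRC1ctrl and 515 and 617 TPM in PRC1cKO (1 called lower). The 9 of differentiating spermatogonia had 311 and 455 against 708 and 967 TPM (0 called). The 7 of steroid-producing Leydig cells had 1.39 and 1.35 against 22.7 and 63.7 TPM (1 of 6 tested called higher). The part of these in the results was not tested. Among 84 members tested, limma called 0 in either direction, against a background of 0.222% higher and 1.94% lower among 13953 genes. At an unadjusted p under 0.05, Rpl39, Rps28 and Rps29 were higher and Rpl22l1 and Rps7 were lower, where 5.98% of all genes were higher and 8.24% lower. The groups did not overlap in 21 members that were higher (25%, against 27.5% of all genes) and in 10 that were lower (11.9%, against 17.3%). The median log2 fold change of the members was 0.02 and that of all genes 0.225. After median-of-ratios scaling, which shifts all genes alike, they were -0.29 and -0.034, so the members' median had another sign but lay below that of all genes under both scalings. The most distinct member was Rpl22l1, with 475 and 320 TPM in PRC1ctrl and 172 and 150 TPM in PRC1cKO (-1.28, SE 0.278, limma adjusted p = 0.0997). The groups did not overlap, but the test was not passed. The share of Rpl22l1 in its pair was 74.3% and 73.1% in PRC1ctrl and 47.2% and 46.4% in PRC1cKO. Rps28 had 389 and 439 TPM in PRC1ctrl against 657 and 717 TPM in PRC1cKO, and Rps7, which takes part in the processing of ribosomal RNA, had 921 and 939 against 630 and 618 TPM. The P stalk held 0.347% and 0.381% of the library in PRC1ctrl and 0.438% and 0.421% in PRC1cKO, without overlap. Rpl39 had 9.77 and 11.5 against 27.8 and 22.0 TPM (1.15, adjusted p = 0.236). Rps4x had 105 and 108 against 80.3 and 72.8 TPM (-0.47, not past the test), and Rps4l overlapped between the groups with 97.5 and 229 against 129 and 230 TPM. These libraries were made from few cells, and the replicates of a group often differed more than in the stranded libraries: Rplp0 had 764 and 1575 TPM in the PRC1ctrl libraries. The number of genes with at least 1 TPM was 12422 and 13986 in replicates 1 and 2 of PRC1ctrl, and 12451 and 13826 in those of PRC1cKO. The part of cell number or replicate number in this spread was not tested.

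After Win18446, few members passed the test, and most values lay slightly above those of PRC1ctrl in the libraries labelled PRC1cKO. Of 85 members tested, 8 rose and 0 fell (limma, adjusted p under 0.05 over 16521 genes), against a background of 5.87% higher and 26.7% lower, and 0 of the 8 passed 2-fold, as 1.27% of all genes did upward. At an unadjusted p under 0.05, 26 were higher and 1 was lower, against 9.85% and 34.4% of all genes. The difference was above 0 in 79 of the 85, and below 0 in Rpl5, Rpl6, Rpl12, Rpl22l1, Rpl29 and Rps13. Rps13 had 1052 and 1001 TPM in PRC1ctrl and 972 and 640 TPM in PRC1cKO. The small subunit held 6.59% and 6.01% of the library in PRC1ctrl and 7.54% and 7.30% in PRC1cKO, the large subunit 7.03% and 6.53% against 7.78% and 7.62%, and the P stalk 0.937% and 1.03% against 1.22% and 1.26%. Their median was 0.22 where that of all genes was -0.188. Median-of-ratios scaling, which moved the latter to 0.028, raised the median of the members to 0.47 and the number called to 49, against 15.4% of all genes. The groups did not overlap in 54 members that were higher (63.5%, against 20.1% of all genes) and in 3 that were lower (against 49.3%). The count of 8 was 2 with no filter on low values and 0 without the trend and robust options of limma. It rested on few libraries: it was 21 without PRC1ctrl replicate 1, 0 without PRC1cKO replicate 1 and 1 without PRC1cKO replicate 2.

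The 8 members, some of them named after their values were seen, belong to both subunits, the stalk and the paralogs. Rps28 had 2487 and 2563 TPM in PRC1ctrl and 3236 and 3324 TPM in PRC1cKO (0.38, limma adjusted p = 0.0318). Rps27l had 166 and 148 against 246 and 203 TPM (0.505, adjusted p = 0.0295), and Rplp1 3214 and 4100 against 4932 and 5052 TPM (0.46, adjusted p = 0.0468). The others included Rpl27 (0.47), Rpl41 (0.36), Rpl37a (0.34) and Rps26 (0.34). In each of the 8 both PRC1cKO libraries were above both PRC1ctrl libraries. Rpl27 was not called once the TPM of its named pseudogenes was added to it (0.18, adjusted p = 0.395). Each of the 8 lost its call without PRC1cKO replicate 1, and all but Rps27l lost it without PRC1cKO replicate 2; 4 kept it without PRC1ctrl replicate 1 and 5 without PRC1ctrl replicate 2.

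Rpl22l1 again had lower values under the label PRC1cKO. It had 869 and 700 TPM in PRC1ctrl and 586 and 349 TPM in PRC1cKO after Win18446 (-0.78, SE 0.279, limma adjusted p = 0.0965), without overlap and without passing the test, while Rpl22 had 868 and 714 against 1145 and 972 TPM (0.42, adjusted p = 0.0608). The share of Rpl22l1 in the pair was 50.0% and 49.5% in PRC1ctrl and 33.9% and 26.4% in PRC1cKO. In each of the 3 comparisons the share of Rpl22l1 was lower, without overlap, in the group set against the control, and the exact permutation test of each cannot give a p below 0.333. Rps4x had 436 and 321 against 466 and 453 TPM (0.30) and Rps4l 326 and 434 against 423 and 464 TPM (0.23), neither past the test. The share of Rps4l in its pair overlapped, with 42.8% and 57.5% against 47.6% and 50.6%. Rpl39 had 113 and 72.0 against 168 and 118 TPM (0.63, adjusted p = 0.154), and Rpl39l 395 and 322 against 449 and 387 TPM (0.22). Other signs moved with this comparison. Of the red cell markers, 3 of 3 tested of 5 were lower in PRC1cKO, with sums of 8.76 and 8.64 against 0.27 and 0.52 TPM. Of the 13 markers of undifferentiated spermatogonia 3 were lower, with sums of 1325 and 1406 against 1004 and 1126 TPM. Of all genes tested 26.7% were lower, so the count of 3 was not above that share. The number of genes with at least 1 TPM was 16537 and 16599 in PRC1ctrl and 15098 and 15208 in PRC1cKO. Markers of Leydig cells, the steroid-producing cells between the tubules, differed between libraries: 0 of the 6 tested of 7 passed, and their sum was 428 and 85.4 TPM in PRC1ctrl and 84.1 and 23.8 TPM in PRC1cKO. The part of these in the result was not tested.

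Because markers of differentiating spermatogonia were also higher under the label PRC1cKO after Win18446 (839 and 930 against 705 and 731 TPM in sum, 6 of 9 higher and 1 lower), the change was set against that in WT differentiation. Of all genes tested after Win18446, 5.87% were higher and 26.7% lower. The difference between both effects was tested over the 8 stranded libraries, which differ in strain, in genotype (the PRC1 mice lack Ring1 and carry Ddx4-Cre) and in treatment between the pairs. It was positive for 62 of 85 members and negative for 1 (limma, adjusted p under 0.05 over 17794 genes), where 10.1% of all genes were positive and 28.7% negative. The median difference of the members was 0.75 on the log2 scale, against -0.345 for all genes. For Rps4x it was 3.28 (SE 0.223, limma adjusted p = 0.000298), as the gene fell in WT Adiff and had a value of 0.30 in PRC1cKO. For Rpl39 it was 1.74 (1.49 and not past the threshold without PRC1cKO replicate 1, adjusted p = 0.0567), for Rps27 1.47, for Rpl31 1.46 and for Rpl13a 1.25. Rps27l was the negative one (-0.84, adjusted p = 0.0139), since its rise in WT Adiff was larger, but after median-of-ratios scaling the value was -0.40 and did not pass (adjusted p = 0.216). For Rpl22l1 the difference was 1.43 (adjusted p = 0.023), and it was not past the threshold without any of 4 libraries (WT Aundiff replicate 1, 0.0693; WT Adiff replicate 2, 0.0748; PRC1ctrl replicate 2, 0.0829; PRC1cKO replicate 1, 0.0543).

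**Figure D5:**
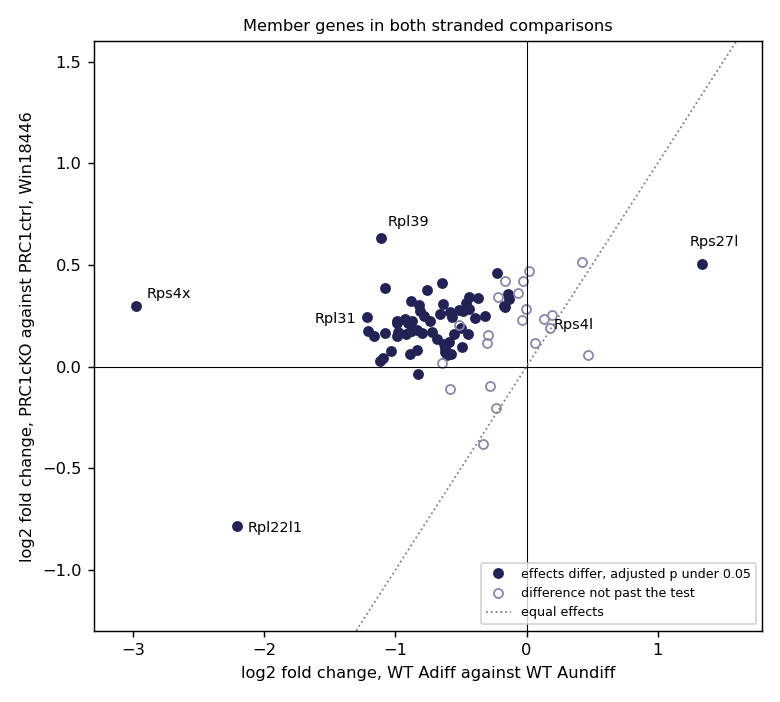
Log2 fold change of each member in WT Adiff against WT Aundiff (x axis) and in PRC1cKO against PRC1ctrl after Win18446 (y axis), on the scale of TPM + 1, with 1 point per member, filled where the effects differed at an adjusted p under 0.05, and a dotted line of equal effects. Most points lie left of 0 and slightly above it, Rps4x lies far to the left at -2.98, Rps27l lies to the right at 1.34, and Rpl22l1 is below 0 on both axes.

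The starts of these genes were examined because transcription of ribosomal protein genes typically begins within a pyrimidine tract. RefSeq promoter sequences on GRCm38.p6, with 250 bases before and 50 bases after the start, were found for 63 of the 88 members. The longest run of C and T within 15 bases on either side of the start had a median of 7 bases in the members and 4 in all 32851 promoters, and a run of at least 8 was present in 41.3% of the members and 12% of all promoters. The letters CTTTCC, searched on the transcribed strand in the same 30 bases, were present in 14.3% of members and 1.42% of all. Over the full 300 bases and on both strands, CTTTCC was present in 46.0% against 26.6%, CCGGAAGT, a site of ETS factors, in 17.5% against 3.89%, and CACGTG, a site of MYC, in 7.94% against 7.15%. None of these motifs contains another. Windows of 30 bases around the start, with the longest run of C and T in capitals, are shown for 2 genes that fell strongly in WT Adiff and have such a run (Rpl13a and Rps27), for the paralog that rose (Rps27l) and for the gene that fell most (Rps4x). The starts are those of the annotation and were not measured here.
Rpl13a (chr7:45128731-45128760, minus strand): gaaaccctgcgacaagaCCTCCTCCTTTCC
Rps27 (chr3:90213634-90213663, minus strand): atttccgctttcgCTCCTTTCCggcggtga
Rps27l (chr9:66946071-66946100, plus strand): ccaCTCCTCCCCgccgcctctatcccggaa
Rps4x (chrX:102189377-102189406, minus strand): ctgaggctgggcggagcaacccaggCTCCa
Of the 4 genes shown, Rps27l, which rose, and Rps27, which fell, each had a longest run of 9 pyrimidines, though at different places in the window. Rpl13a had a run of 13 and Rps4x one of 4. Runs varied among the other genes that fell, with 10 in Rpl31, 4 in Rps19 and 3 in Rpl11. A link between the runs and the changes was not tested.

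The other genes of the pathway were counted from lists set for this purpose. Among 16 further messengers known to carry a TOP tract, 10 were lower and 1 was higher in WT Adiff, with a median of -0.53. Gas5, a host transcript of small nucleolar RNAs, fell by 1.74 on the log2 scale and the elongation factor Eef1b2 by 1.24, and the helicase Eif4a2 rose by 0.68. After median-of-ratios scaling 12 were lower and 0 higher. In PRC1cKO, Gas5 was lower at 2 months (-2.63) and after Win18446 (-1.60), where Eif4a2 was lower too (-1.37). Mitochondrial ribosomal proteins, which work in the separate ribosome of that organelle, had no common direction in WT: of 78 tested, 20 were higher and 8 lower in WT Adiff with a median of 0.14, which turned to 10 higher and 13 lower with a median of -0.04 after median-of-ratios scaling. On the deposited TPM, 23.4% of all genes were higher and 14.7% lower in WT Adiff. After Win18446, 9 were higher and 0 lower with a median of 0.20 (45 and 0 with a median of 0.44 after that scaling). Of 50 genes for ribosomal RNA synthesis and ribosome assembly, 7 were higher and 4 lower in WT Adiff (3 and 9 after median-of-ratios scaling), and 1 was higher and 11 lower after Win18446 (10 and 4 after that scaling). On the deposited TPM, 5.87% of all genes were higher and 26.7% lower after Win18446. Of 13 genes tested that control the synthesis of ribosomal proteins, 4 rose and 2 fell in WT Adiff. Mtor rose by 1.00 and Rheb by 0.86 while the MYC family gene Mycn fell by 1.08. After Win18446, 6 fell in PRC1cKO (4 after median-of-ratios scaling, with 1 higher), among them Larp1 (-1.08) and the mTORC1 subunit Rptor (-0.95).

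Among the 7 genes of or like the cytosolic ribosome that the naming rule leaves out, 4 were lower in WT Adiff and 0 were higher. Of all genes tested, 14.7% were lower and 23.4% higher. The 4 included Rps27rt (-1.28), Rack1 (-0.67) and Rpsa (-0.65). After Win18446, Rps27rt (1.25), Fau (0.47) and Rpsa (0.34) were higher in PRC1cKO, as were 5.87% of all genes. At 2 months 0 were called, where 0.222% of all genes were higher and 1.94% lower. Rps27rt had 24.8 and 28.1 TPM in PRC1ctrl and 73.0 and 56.8 TPM in PRC1cKO after Win18446. In WT it had 449 and 467 TPM in Aundiff and 190 and 187 TPM in Adiff. The sequence that Rps27rt shares with other transcripts was not examined. Rpl36al, the autosomal paralog of the X-linked Rpl36a, made up 37.1% and 38.2% of the pair in WT Aundiff and 48.8% and 48.5% in WT Adiff. Its share was also higher, without overlap, in PRC1cKO at 2 months (66.9% and 65.8% against 64.3% and 58.8%) and after Win18446 (37.4% and 38.8% against 32.1% and 34.5%). The exact permutation test of each cannot give a p below 0.333. On the deposited TPM, Rpl36al itself was not called in any comparison. Most stretches of 100 bases in Rpl36a also occur in other transcripts, which limits these shares.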

How the data were processed

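The authors deposited 1 table of TPM for 55385 genes in 12 libraries, computed with RSEM 1.3.3 on GRCm38; Trim Galore 0.6.6, HISAT2 2.2.1, SAMtools 1.9, HTSeq 1.6.0 and DESeq2 1.28.1 are further tools in the submitters' processing notes, and counts were not used here. TPM adds up to the same total in each library, so a rise of some genes lowers all others, and the depth and counting error of a value are unknown. Precision therefore rests on the spread between the 2 libraries of each group, which the study describes as independent biological replicates.

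On log2(TPM + 1), limma 3.58.1 (R 4.3.3; two-sided, trend and robust options) was run for genes that reached 1 TPM in 2 or more libraries of the fit. Benjamini-Hochberg adjustment covered every gene tested, and a call required an adjusted p under 0.05. A fold change on this scale understates that of low genes. Genes that shared sequence with others were identified from gencode vM21, in which all 88 members were found. The study used gencode vM24. Tables and alignments were made in Python 3.11.15 (pandas 2.3.3, numpy 2.4.6, Biopython 1.88) and figures with matplotlib 3.10.9.

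The genes named are the paralogs and their parents, the 3 largest changes in each direction among called members of a comparison, the 3 highest and 3 lowest members, members on chromosome X, the P stalk, 8 members with a known further role, the ribosomal genes outside the naming rule and, of the other lists, the 2 largest called changes in each direction. Further members are named where the text says so or to give a value. The members and lists were chosen with earlier results of these data known, and the search for pyrimidine runs and for CTTTCC near the start was added after the values were seen. Alternatives were another pseudocount (0.1), no filter or a floor of 5 on the mean TPM, median-of-ratios scaling, removal of mitochondrial rows, addition of named pseudogenes, limma without trend and robust options, 1 fit over the 8 stranded libraries, the replicate number as a block, and leaving out each library. The 3 comparisons and the difference between the WT and Win18446 effects were each tested once. Protein sequences were not used here, and the values of a few genes that the rule covers are not reported here.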

Additional observations from a re-analysis of the deposited data

Results flagged for a closer look

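The results below were set apart because the effect of the label PRC1cKO after Win18446 differed from the effect of differentiation in WT by a test of the difference itself (limma over the 8 stranded libraries, adjusted p under 0.05). The pairs also differ in strain, in treatment and in genotype, as all mice given Win18446 lacked Ring1 and carried Ddx4-Cre, which cannot be told apart from the difference. Among members, 62 had a more positive effect after Win18446 and 1 a more negative one, against 10.1% and 28.7% of all genes tested. As differences on the log2 scale, Rps4x had 3.28, Rpl39 1.74, Rps27 1.47, Rpl31 1.46, Rpl22l1 1.43, Rpl13a 1.25, Rpl39l 1.09, Rps24 1.09, Rplp1 0.69, Rpl36a 0.66 and Rplp0 0.47, and Rps27l had -0.84. The differences of Rplp0, Rplp1 and Rpl36a were past the threshold in the fit as reported but missed it without trend and robust options and on leaving out most of the libraries. That of Rps27l was -0.40 after median-of-ratios scaling and did not pass (limma adjusted p = 0.216). That of Rpl22l1 did not pass with no filter on low values (limma adjusted p = 0.0574). Leaving out PRC1cKO replicate 1 lowered Rpl22l1 to 1.05 and Rpl39 to 1.49, and neither then passed. No group held more than 2 libraries, so none was examined for a single outlying library.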

How the results depend on the processing

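The fall of the members in WT Adiff kept its direction under all alternatives tried. The number called lower ranged from 32 to 64 on leaving out a library, and that called higher from 1 to 2; the latter was 1 with no filter, after median-of-ratios scaling and without trend and robust options. After median-of-ratios scaling, which moved the median of all genes from 0.149, 0.225, -0.188 and -0.345 to -0.002, -0.034, 0.028 and 0.012, the median of the members was in the same order -0.77 in WT, -0.29 at 2 months, 0.47 after Win18446 and 1.19 for the difference between the effects, and the sums differed by -7.75, -1.74 and 4.89 percentage points in the 3 comparisons. The sum in WT differed by -6.39 points without mitochondrial rows, -6.52 with named pseudogenes and -6.23 with 5 ribosomal genes outside the naming rule. At 2 months the difference of the sums ranged from -0.766 to 0.173 on leaving out a library, with the positive value without PRC1ctrl replicate 1. After Win18446, the number called higher was 2 with no filter, 49 after median-of-ratios scaling, 0 without trend and robust options and 0 to 21 on leaving out a library (0 to 2 lower), and the median ranged from 0.14 to 0.27. For the difference between the effects, the number called lower was 0 after median-of-ratios scaling and 1 to 2 on leaving out a library, with a median of 0.74 to 0.84. At 2 months, leaving out a library gave 0 to 1 call in each direction. In WT, Rps4l had -0.038 after median-of-ratios scaling and -0.11 to 0.38 on leaving out a library, Rpl22 -0.11 to 0.054 and Rplp2 -0.16 to 0.10, so these had no stable sign. The causes of these changes were not tested, other than that fewer libraries or a changed scale enter each fit.

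PRC1ctrl mice were littermates of PRC1cKO mice, but no label says that libraries with the same number come from 1 litter or batch, so they were taken to share only a number. With the replicate number as a block, 3 of 84 members were called lower and 2 higher at 2 months. Of all 13953 genes tested there, 1231 were then lower and 1562 higher, against 270 and 31 without the block. After Win18446 1 member was called lower (5238 of all 16521 genes). For the difference between the effects 2 members were called lower (5891 of 17794 genes), and in WT 62 (2718 of 15470 genes). The correlation of the deviations of same-numbered libraries was 0.158 in WT, 0.381 at 2 months and 0.122 after Win18446, from 2 pairs each. The depth of the libraries is unknown, and with 2 libraries a group the calls rest on variances pooled across genes.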
